A study of Drosophila melanogaster with 8 samples.

Results

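The Rab GTPases are the largest branch of the small GTPases and direct membrane traffic, and their genes were examined for binding by the histone demethylase KDM5 in the prothoracic gland of Drosophila larvae. Members were chosen by symbol, as every protein-coding gene named Rab or RabX followed by a digit, which left out the genes of Rab activators, inactivators and binding partners. This gave 33 of the 13945 protein-coding genes annotated on chromosomes 2, 3, 4 and X. They comprised 23 numbered Rab genes, 5 RabX genes and 5 short X-linked genes related in name to Rab9. The last are Rab9D, Rab9Db, Rab9E, Rab9Fa and Rab9Fb, called the Rab9-like copies below. Rab32 stood in the authors' gene list under its older symbol ltd and was matched by its identifier.

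The data came from Targeted DamID (TaDa), in which a protein is fused to the bacterial Dam methylase and leaves adenine methylation at GATC sites close to where it sits on the DNA. There were 4 samples of Dam:KDM5, from larvae of the genotype tub-Gal80[ts]; spok-Gal4 with UAS-LT3-dam-kdm5, and 4 samples of Dam alone, from larvae with the same drivers and UAS-LT3-dam. The spok-Gal4 driver is active in the prothoracic gland and the temperature-sensitive Gal80 kept it off for 5 days at 18°C, until 2 days at 29°C released it before the wandering larvae of the last instar were collected. Each sample pooled 100 larvae that had been homogenized whole, so the driver alone restricted the profile to the gland. The authors averaged the replicates before they called peaks, and the analysed files hold 1 averaged profile of Dam:KDM5 over Dam alone. No value below therefore carries a replicate error and no test was run. The study's methods give a nominal read number for TaDa sequencing, but the files hold no count for any sample. Each file value describes binding and not expression, so the labelled tissue was not checked against its marker genes.

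A Rab protein cycles between a GDP-bound form held in the cytosol and a GTP-bound form anchored in a membrane by its lipid tail. Exchange factors (GEFs) load GTP, GTPase-activating proteins (GAPs) end the active state, and effectors such as tethers and motors bind the active form. Each organelle of the secretory and endocytic routes carries its own set of Rab proteins, and secretory cells such as those of an endocrine gland rely on them to move vesicles.

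KDM5 peaks were found in most of the numbered Rab genes. A total of 21 of 33 Rab genes (63.6%) were on the authors' list of bound genes, while 38.5% of all protein-coding genes were listed. The numbered genes accounted for 19 of these, out of 23 (82.6%). The RabX genes added RabX1 and RabX6, 2 of 5 (40%), which is close to the 38.5% of all genes. None of the 5 Rab9-like copies was listed. By a count of genes whose annotated body overlapped a peak, the same number of Rab genes, 21, was obtained against 38.7% of all genes. A peak lay within 1 kb of an annotated transcription start site (TSS) in 22 Rab genes, against 39.9% of all genes. A peak covered an annotated TSS itself in 9 Rab genes (27.3%), against 20.1% of all genes. When each peak was given to the gene with the nearest TSS only, 19 Rab genes were hit, against 29% of all genes. With the 2465 highest-scoring peaks alone, 15 Rab genes held a peak (45.5%), against 20.7% of all genes.

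The binding score is the authors' value for a peak relative to Dam alone, whose log base is not stated, and the list gives a gene the score of its highest peak. The 21 listed Rab genes had a median score of 5.63 (1.96 to 8.78, with quartiles of 3.66 and 7.63), beside a median of 4.75 (1.43 to 10.65, with quartiles of 3.46 and 6.22) over all 5364 listed protein-coding genes. Of the 21, 15 (71.4%) scored above the median of all listed genes. The scores fell into a wide range, with Rab1, Rab35, Rab14, Rab6, Rab7 and Rab11 all above 7.5 and Rab21, Rab18 and Rab30 below 3.

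**Figure D1:**
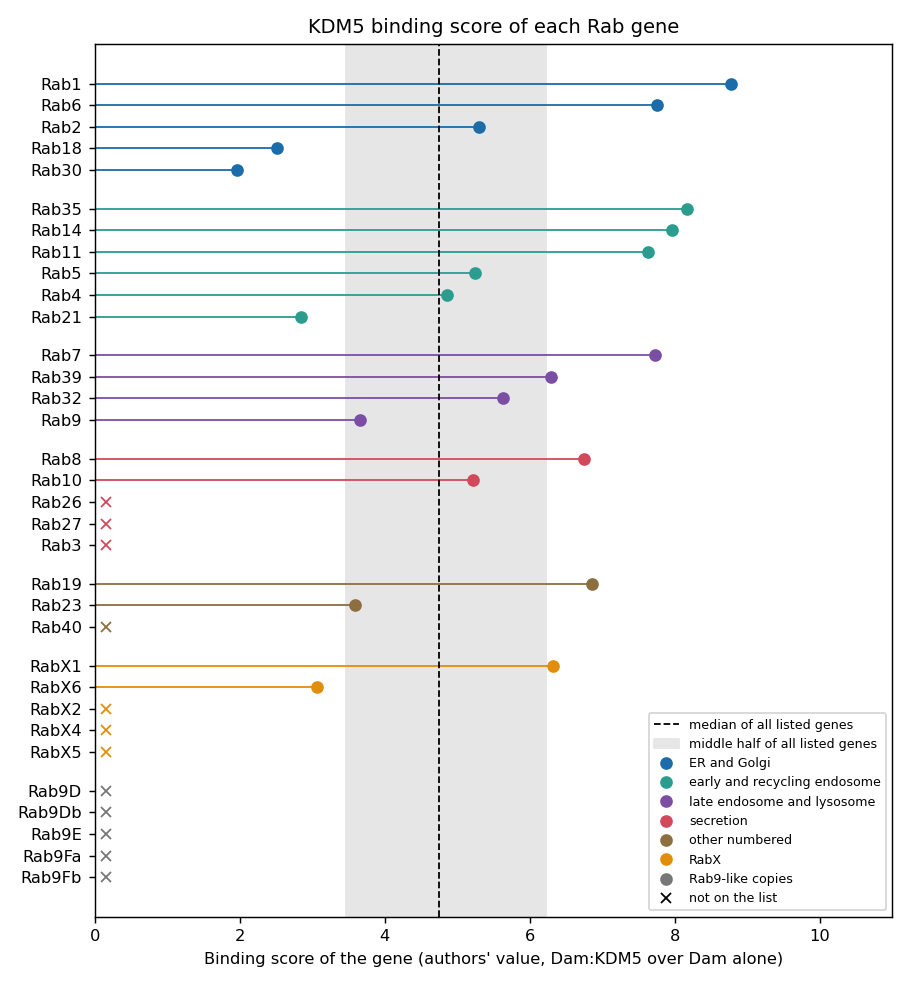
Binding score of each Rab gene (horizontal axis, authors' value for Dam:KDM5 over Dam alone) by the group to which the gene was assigned. Crosses mark the 12 genes that were not on the list, the dashed line the median of all listed genes (4.75) and the shaded band its quartiles (3.46 to 6.22). All 15 genes of the first 3 groups carry a score, beside 19 of all 23 numbered Rab genes (82.6%) and 38.5% of all protein-coding genes.

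Each numbered Rab gene was assigned to a traffic group by the role of its product. As 19 of the 23 numbered genes (82.6%) were listed, most groups were bound to hold mainly listed members. Whether listing differed between the groups was not tested. Genes assigned to the endoplasmic reticulum (ER) and the Golgi were all listed, 5 of 5, with a median score of 5.3. The highest score of the family belonged to Rab1 (8.78), whose product drives transport from the ER to the Golgi. Its peak (3R:21268239-21269470, dm6, FDR 7.22e-28) was 1232 bp wide, ran from -410 to 821 bp relative to the TSS and scored above 99% of all 4931 peaks. Of its length, 532 bp were intron, 267 bp 5′ UTR, 23 bp coding sequence and 410 bp lay outside the gene. The same peak overlapped AP-2sigma, which encodes the small subunit of the clathrin adaptor AP-2. The peak can therefore not be assigned to Rab1 alone.

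Rab6, which acts in traffic at the Golgi, held a pair of peaks with nearly equal scores. The higher one (2L:12108416-12108666) scored 7.75, was 251 bp wide and lay wholly in coding sequence, 450 bp downstream of the TSS. The other (2L:12107001-12108099) scored 7.62, covered 879 bp of the 3′ UTR and extended into ThrRS, the gene of threonyl-tRNA synthetase. No peak covered the Rab6 TSS.

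The coding-sequence peak of Rab6 is the narrowest of the leading Rab peaks and is shown whole, as an example of what TaDa resolves. It spans 3 GATC fragments, the fewest in any of the 4931 peaks. The sequence reads along the minus strand of 2L, in the direction of transcription, and capitals mark the 2 GATC sites that lie wholly inside it.
Rab6 peak: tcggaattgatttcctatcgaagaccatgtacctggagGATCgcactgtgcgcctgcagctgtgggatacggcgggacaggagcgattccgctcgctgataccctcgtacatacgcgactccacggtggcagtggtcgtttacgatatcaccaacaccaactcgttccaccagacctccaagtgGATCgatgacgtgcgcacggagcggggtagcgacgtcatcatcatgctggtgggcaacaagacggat

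The other genes of this group scored lower. Rab2, which acts at the Golgi and in fusion of autophagosomes with lysosomes, had a peak of 929 bp with a score of 5.3 (2R:6696835-6697763) that began 96 bp downstream of its TSS and was 674 bp intronic. Rab18, linked to the ER and to lipid droplets in mammals, scored 2.51 (X:5670210-5671630), and its peak also overlapped CG4119. Rab30, a Golgi Rab, had the lowest score of the family, 1.96 (2L:7030066-7031792, FDR 0.00124), in a peak over its 3′ end with 941 bp of 3′ UTR and 356 bp of coding sequence. Only 2.05% of all peaks scored below it.

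All 6 genes for early and recycling endosomes were listed, with a median of 6.44. Rab35, whose product recycles cargo to the plasma membrane, scored 8.17 in a peak that overlapped no other protein-coding gene (X:20158182-20159489, FDR 5.35e-05). The peak lay between 383 and 1690 bp downstream of the TSS and held 713 bp of 5′ UTR, 436 bp of intron and 159 bp of coding sequence. Rab11, the GTPase of the recycling endosome, scored 7.63 in a peak that was intronic over its full 1144 bp (3R:21111891-21113034). Rab14, which acts between the Golgi and endosomes, scored 7.96 in a broad peak of 2857 bp (2L:14354966-14357822) that covered its TSS and reached l(2)34Fd. Its lower peak scored 5.77 and overlapped only the last 84 bp of the 3′ UTR, with most of its length over Pgant35A, a mucin-type glycosyltransferase gene.

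Rab5, which governs fusion of early endosomes, scored 5.24. Its peak (2L:2361445-2364223) lay 1050 to 3828 bp downstream of the outermost TSS, over 2314 bp of intron and 465 bp of 5′ UTR, and covered an internal TSS of the gene, which has 6 annotated. Rab4, of the rapid recycling route, scored 4.86 (2R:17574183-17575206) in a peak at its 3′ end that it shared with Dcr-2, the Dicer of small interfering RNAs. Rab21, of the early endosome, was the lowest of the group at 2.84 (X:23012410-23015272). The centre of that peak was at -432 bp from the Rab21 TSS and overlapped Coa7, a gene named for cytochrome c oxidase assembly. A second Rab21 peak, shared with the fucosyltransferase gene FucTC, scored 2.58 with an FDR of 0.00713, close to the authors' limit of 0.01.

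All 4 genes for late endosomes and lysosomes were listed as well, with a median of 5.96. Rab7, the central Rab of late endosomes, scored 7.73 in a peak of 1494 bp across its TSS (3R:23992753-23994246) that also overlapped Epp. Rab39, a lysosomal Rab, scored 6.29 (X:7733944-7735391), but the centre of its peak lay upstream of its TSS and nearer to the start of Pdp, which encodes the phosphatase of pyruvate dehydrogenase. Rab32, needed for the lysosome-related pigment granules of the eye, scored 5.63 in a peak of 455 bp (2R:9185553-9186007). The peak was made up of 275 bp of 5′ UTR and 180 bp of coding sequence, with no other protein-coding gene under it. Rab9, which in mammals returns receptors from late endosomes to the Golgi, scored 3.66. Its peak (2L:19431798-19436308) was the widest of the family at 4511 bp and covered the whole gene together with parts of CG10237 and the RNA ligase gene RtcB.

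Of the genes for secretion 2 of 5 were listed (40%), close to the 38.5% of all protein-coding genes. Rab8, which directs vesicles to the cell surface, scored 6.74 (3L:19869185-19870526). Rab10, which acts in basement membrane secretion, scored 5.21 (X:20251924-20252674). Each had a peak with no other protein-coding gene under it. Rab3, Rab26 and Rab27, which are best known from synaptic vesicles and regulated secretory granules, were not listed. The nearest peak to Rab26 lay 922 bp outside the gene, at the Polycomb gene Pc (score 4.35), and made Rab26 the only unlisted Rab gene with a peak within 1 kb of its TSS. A peak of 7.5 at CG7220 and Daao1 was 1663 bp from Rab3, and a peak of 3.34 at pck was 2082 bp from Rab27. These 3 are not short genes: Rab26 spans 16254 bp with 23 GATC sites, Rab3 7869 bp with 25 and Rab27 3091 bp with 10.

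Of the remaining numbered genes, Rab19 scored 6.86 (3L:8297862-8298776) in a peak over its 3′ part that reached Arl5, the gene of another small GTPase. Rab23, which in mammals restrains Hedgehog signaling, scored 3.59 in a peak of 1377 bp that lay wholly in intron (3R:5683880-5685256). Rab40, related to the SOCS-box Rab proteins of vertebrates, was not listed, and its nearest peak was 4932 bp away at CG42258 (6.26).

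Among the RabX genes, RabX1 scored 6.32 in a peak of 3399 bp (2R:23521604-23525002) shared with mi. RabX6 scored 3.06 (3L:690611-692241, FDR 0.00151) in a peak shared with Vti1a, the gene of a SNARE protein of the Golgi and endosomes. RabX4 and RabX5 were not listed but had a peak close by, 1080 bp away at Kaz (5.02) and 1352 bp away at RpL23A and CG7974 (5.16). RabX2 was 30467 bp from the nearest peak, at the phosphatase gene flw (5.46).

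The 5 Rab9-like copies were the only class with no listed member. Rab9D lay 3810 bp from a peak of 7.06 at spri, whereas the other 4 lay 20841 to 59441 bp from theirs. Most of them are near-copies of each other in sequence. Rab9D, Rab9Db, Rab9E and Rab9Fa share 71.6% to 85.1% of their 31-base words with each other, and only 4.5%, 9.51%, 13.3% and 3.69% of the 31-base words in each were unique in the genome. Rab9Fb was 97.5% unique and RabX2 82% unique, and neither was listed. Rab9Fb shared 1.42% of its words with each of these 4 and was grouped with them by name. RabX2, placed in another class by its name, shared 14.2% to 16.8% of its words with each of them. Across the genome, 39 of 404 protein-coding genes (9.65%) with less than 50% unique words were listed. How the authors' aligner treated reads with several matches is not given in the methods used here, so an absent peak in the 4 copies cannot be told apart from reads that could not be placed. Without the 5 copies the count was 21 of 28 genes.

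Listed and unlisted members also had different median sizes and GATC contents, and TaDa reads methylation only at GATC sites. Median gene length was 3032 bp for listed and 1052 bp for unlisted Rab genes, beside medians of 2972 bp and 1768 bp for all listed and all unlisted genes. Within the gene, listed Rab genes held a median of 10 GATC sites (4 to 26) and unlisted ones 3 (1 to 25). None of the 8 Rab genes with 0 to 3 sites was listed, while 18.1% of all genes in that class were. With 4 to 7 sites 6 of 7 Rab genes were listed (33.2% of all genes), with 8 to 15 sites 12 of 13 (42.1%) and with 16 or more 3 of 5 (49.8%). By length, 1 of 7 Rab genes of up to 1000 bp was listed (17.4% of all genes), and the count was 6 of 8 at 1001 to 2000 bp (34.1%), 9 of 11 at 2001 to 4000 bp (45%), 4 of 5 at 4001 to 8000 bp (52.6%) and 1 of 2 from 8001 bp (49.5%). All 5 Rab9-like copies were among the 7 genes of up to 1000 bp as well. The part of gene length, GATC content and repeated sequence in the family's count was not tested.

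**Figure D2:**
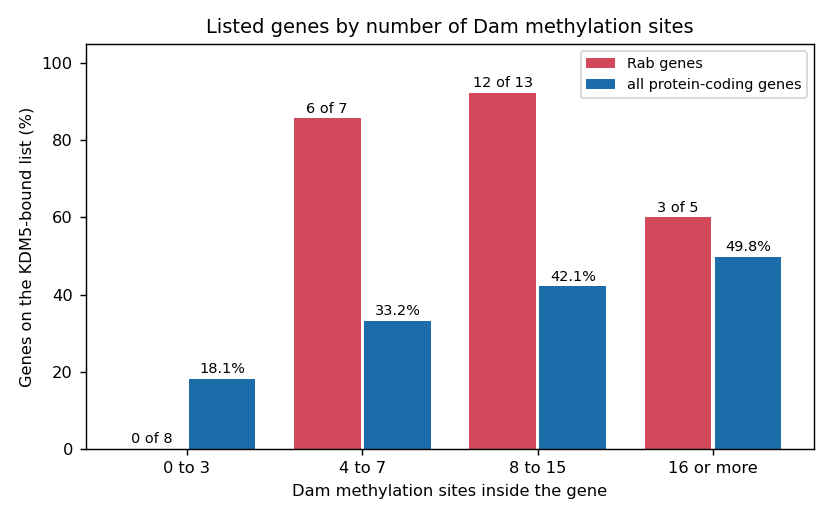
Share of genes on the list of KDM5-bound genes (vertical axis, %) by the number of Dam methylation sites inside the gene (horizontal axis), for the Rab genes on the left of each pair and all protein-coding genes on the right. None of the 8 Rab genes with 0 to 3 sites was listed, against 18.1% of all genes in that class. Of the 25 Rab genes with more sites 21 were listed, against 33.2% to 49.8% of all genes in the other classes. The 8 Rab genes with 0 to 3 sites include all 5 Rab9-like copies.

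By chromosome arm, all 5 Rab genes of 2L were listed (36.6% of all genes there), 4 of 5 on 2R (39.9%), 3 of 5 on 3L (38.3%), 4 of 5 on 3R (40.9%) and 5 of 13 on X (35.7%). With the Rab9-like copies left out, X had 5 of 8.

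The peaks of the listed Rab genes lay mostly downstream of the gene start, as did those of all listed genes. A leading peak was chosen among the peaks that overlap the gene body, so it could not lie wholly upstream. That choice by itself shifts the positions of listed genes downstream. The leading peak was wholly downstream of the outermost TSS in 14 of 21 genes (66.7%), against 61.6% of all listed genes, and covered that TSS in 7 (33.3%, against 38.4%). Its centre lay at a median of 909 bp downstream (range -432 to 2439 bp), beside 936.8 bp for all listed genes. Over the 21 leading peaks together, 40% of the length was intron, 17% coding sequence, 11.6% 5′ UTR and 8.03% 3′ UTR, and 23.4% lay outside the Rab gene. Coverage was also read at fixed positions along the genes. At the TSS 7 of 21 listed Rab genes were covered by a peak (33.3%, against 42.5% of all listed genes), at 600 bp downstream 16 (76.2%, against 57.3%) and at 1200 bp downstream 17 (81%, against 51.3%). The position at 1200 bp is where the share of listed Rab genes was highest. At 600 bp upstream 4 were covered (19%, against 32.5%). Over all Rab genes, listed or not, 12.1% were covered at 600 bp upstream and 48.5% at 600 bp downstream. The same shares over all protein-coding genes were 15% and 22.3%.

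**Figure D3:**
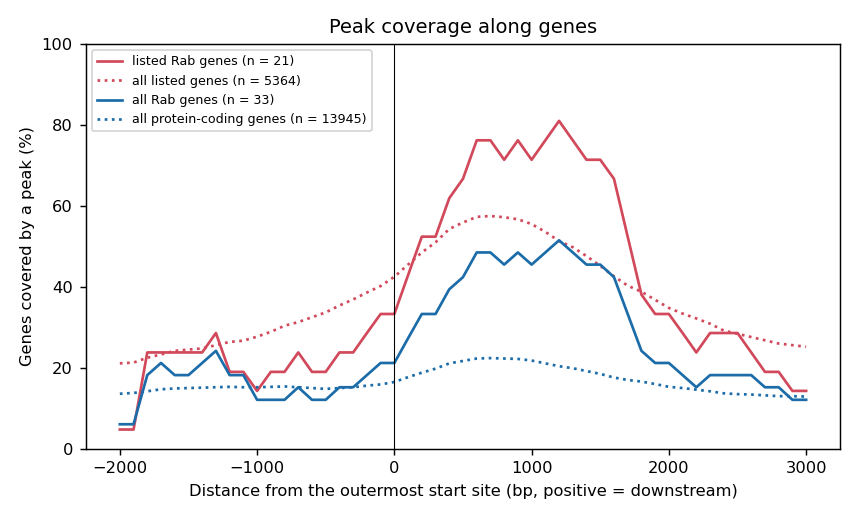
Share of genes covered by a KDM5 peak (vertical axis, %) at each distance from the outermost TSS (horizontal axis, bp), with solid lines for Rab genes and dotted lines for all genes. Among listed genes, coverage of the Rab genes was 33.3% at the TSS and 81% at 1200 bp downstream, its highest point. Genes were listed by overlap with a peak, which favours coverage downstream of the TSS in the listed groups.

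In 6 of the 14 genes with a wholly downstream peak (42.9%), namely Rab2, Rab6, Rab8, Rab11, Rab35 and RabX6, the leading peak began at the first GATC site after the TSS. The same was true of 936 of 3300 listed genes (28.4%). The fragment with the TSS of Rab35, for example, reached from -571 to 384 bp, and the peak started at that downstream site. For RabX6 the site was only 94 bp past the TSS and for Rab8 552 bp. The GATC fragment that held the TSS had a median length of 816 bp in listed and 905 bp in unlisted Rab genes, which limits how finely the edge of a peak can be placed.

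**Figure D4:**
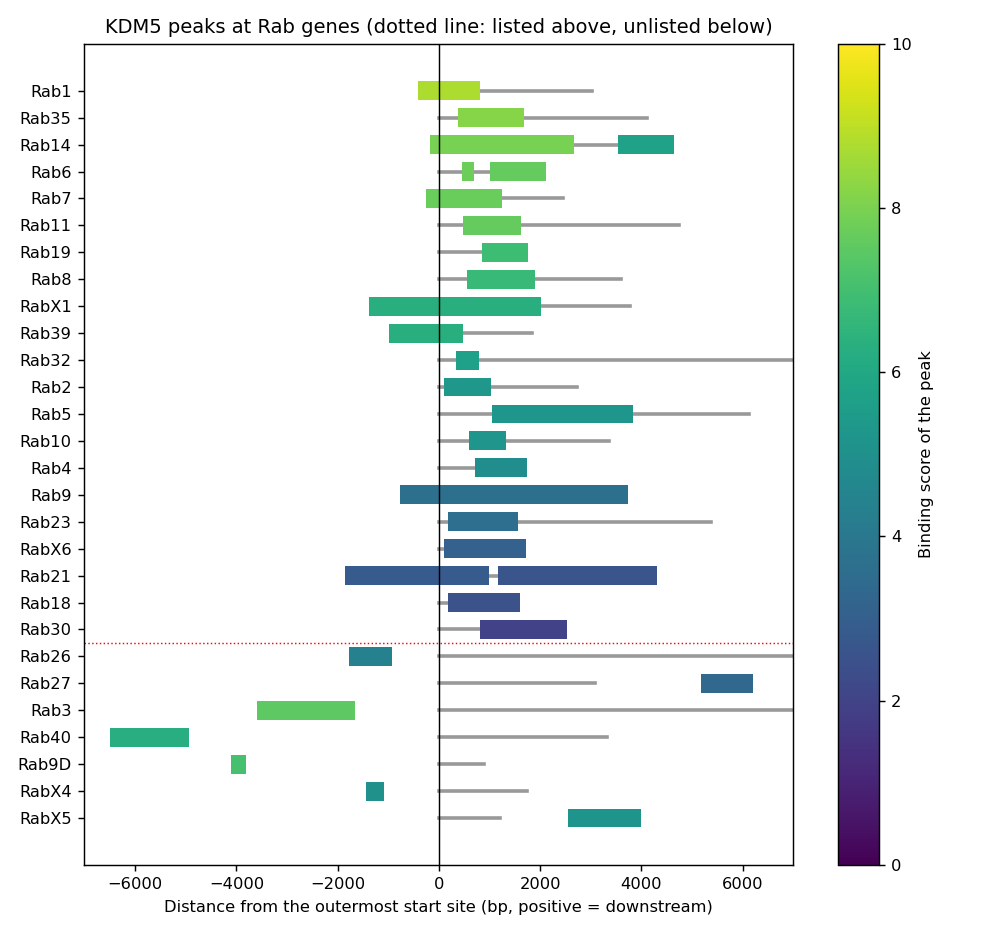
KDM5 peaks (bars, coloured by binding score) relative to the outermost TSS (0 on the horizontal axis, bp, positive downstream) for the 21 listed Rab genes and, below the dotted line, the 7 unlisted Rab genes within 5 kb of a peak. Grey lines are the genes, shown up to the edge of the plot. Most bars begin to the right of 0, and at Rab14, Rab6 and Rab21 there are 2.

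Many Rab genes start back to back with another gene. A protein-coding gene on the opposite strand had its start within 500 bp upstream in 13 of 21 listed Rab genes (61.9%), against 41.7% of all listed genes, and in 2 of 12 unlisted Rab genes (16.7%), against 16.9% of all unlisted genes. The partner was itself listed in 7 of the 13 (53.8%), against 74.3% among all listed genes with such a partner. Rab14 and l(2)34Fd, Rab7 and Epp, RabX1 and mi, Rab39 and Pdp, and Rab21 and Coa7 shared 1 peak across both starts. Rab5 and Rab23 had a peak of their own beside listed partners, Axud1 (3.02) and plx (7.11). The other 6 had an unlisted partner. These were Rab6 with Phae1, Rab8 with Usp32 at 61 bp and Rab2 with Mob4 at 78 bp. The rest were Rab10 with CG17068, RabX6 with CG32483 and Rab30 with Caper at 115 bp. In each of the 6 the peak lay wholly on the Rab side of the start. A peak over the partner would have placed it on the list, so that side follows largely from the grouping. The unlisted Rab genes that start back to back were Rab27, 89 bp from mei-38, and Rab40, 416 bp from the listed CG42258.

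The promoters, taken as 250 bases before to 50 after the outermost TSS, were searched on both strands for 8 short motifs. The DNA replication-related element (DRE), TATCGATA, is a core promoter motif of broadly active Drosophila genes. It was present in 11 of 33 Rab promoters (33.3%), against 9.36% of all 13945 promoters of this length. Among listed genes it was present in 9 of 21 Rab promoters (42.9%, against 14.7% of all listed genes) and among unlisted genes in 2 of 12 (16.7%, against 6.04%). All 11 had a DRE within 100 bases before the start. All but Rab19 and Rab35 also start back to back with another gene, so the motif cannot be assigned to the Rab gene alone. At Rab14 the DRE, at -81, lies beyond the start of l(2)34Fd, which is 60 bp from the Rab14 TSS. The shorter core ATCGAT, which lies within TATCGATA, occurred in 17 Rab promoters (51.5%, against 23.3%). TATAAA was found in 8 (24.2%, against 45.8%), GAGAG in 4 (12.1%, against 29.7%), the E-box CAGCTG in 5 (15.2%, against 17.7%), and GATC in 10 (30.3%, against 45.2%). The E-box CACGTG and the Motif 1 core GGTCACACT each occurred in Rab14 alone (3.03%, against 4.2% and 6.05%). A match to a motif describes the sequence and does not show that a factor binds there.

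Promoters with a DRE are shown from 100 bases before to 20 bases after the start, so that the place of the motif can be compared between the highest-scoring DRE genes, the lowest-scoring one and those with no peak. Capitals mark TATCGATA and, in Rab14 only, the E-box CACGTG and the Motif 1 core, which appears in reverse as AGTGTGACC. All read 5′ to 3′ on the strand of the gene, in dm6. The positions are X:20159853-20159972 on the minus strand for Rab35 (score 8.17), 2L:14355045-14355164 on the plus strand for Rab14 (7.96), 2L:12109097-12109216 on the minus strand for Rab6 (7.75) and 3R:23992908-23993027 on the plus strand for Rab7 (7.73). Rab30 (1.96) is at 2L:7032587-7032706, Rab27 (not listed) at X:1476955-1477074 and Rab40 (not listed) at X:12463093-12463212, all on the minus strand.
Rab35: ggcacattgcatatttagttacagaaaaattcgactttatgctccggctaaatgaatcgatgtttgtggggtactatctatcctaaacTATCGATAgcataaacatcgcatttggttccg
Rab14: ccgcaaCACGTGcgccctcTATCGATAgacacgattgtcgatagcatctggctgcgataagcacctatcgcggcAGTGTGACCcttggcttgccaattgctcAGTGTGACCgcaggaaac
Rab6: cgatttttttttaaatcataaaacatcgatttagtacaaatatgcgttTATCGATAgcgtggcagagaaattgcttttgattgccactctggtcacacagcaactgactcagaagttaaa
Rab7: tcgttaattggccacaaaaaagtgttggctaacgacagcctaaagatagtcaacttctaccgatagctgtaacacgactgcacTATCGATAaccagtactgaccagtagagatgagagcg
Rab30: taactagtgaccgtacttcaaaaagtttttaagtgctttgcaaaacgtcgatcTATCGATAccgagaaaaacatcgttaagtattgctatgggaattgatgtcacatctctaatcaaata
Rab27: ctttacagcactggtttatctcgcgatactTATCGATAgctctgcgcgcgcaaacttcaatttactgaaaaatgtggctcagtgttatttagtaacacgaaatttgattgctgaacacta
Rab40: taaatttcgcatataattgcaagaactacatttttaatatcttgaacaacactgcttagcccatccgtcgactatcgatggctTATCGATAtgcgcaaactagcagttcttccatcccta

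The DRE began at positions from -81 to -12 in the genes shown, counted from the TSS, and Rab35 had another at -170. In Rab14 and Rab7 the whole stretch lay under the KDM5 peak. In Rab35, Rab6 and Rab30 none of it did, since their peaks began further downstream. The listed Rab genes with a DRE had a median score of 6.86 (n = 9, 1.96 to 8.17) and those without 5.225 (n = 12, 2.51 to 8.78), beside 4.93 (n = 787) and 4.71 (n = 4577) for all listed genes. The ranges of the Rab genes with and without the motif overlapped almost fully, and Rab1, the highest of all, had no DRE.

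**Figure D5:**
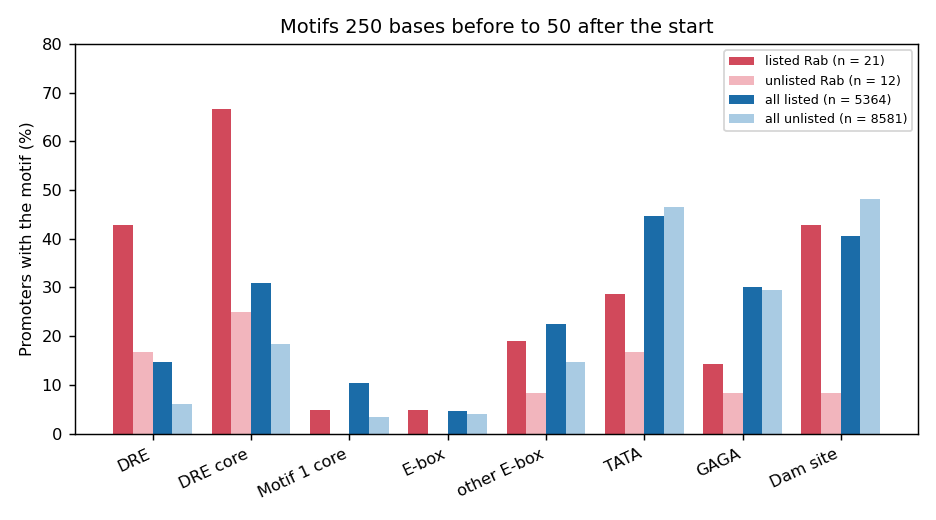
Share of promoters with each motif (vertical axis, %) in listed and unlisted Rab genes (red) and in all listed and unlisted genes (blue). The DRE was found in 42.9% of listed Rab promoters and 14.7% of all listed promoters, and TATA in 28.6% and 44.6%.

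The genes that act on Rab proteins were also examined, with the same 38.5% of all genes as background. Of the Rab GEF genes 16 of 23 were listed (69.6%), led by pcs (7.61) and gry (7.4), while Bet5 and brun were not. A peak does overlap brun in the annotation used here. Of the GAP genes 12 of 21 were listed (57.1%), led by GAPcenA (8.44) and Tbc1d8-9 (7.49), while CG1695 and CG17883 were not. Effector genes had 16 of 24 (66.7%), led by the golgin gene Gmap (8.84) and by Ehbp1 (8.09), while car and dor were not listed. The prenylation and recycling machinery had 3 of 5 (60%). Here Gdi (5.18), which extracts Rab proteins from membranes, and Rep (3.81), which escorts new ones to the prenyl transferase, were listed together with temp (3.0), named after its value was seen, and RabGGTa and RabGGTb, the transferase itself, were not.

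A pair of other branches of the small GTPase superfamily was set beside the Rab genes. The Arf and Sar genes had 8 of 12 (66.7%), led by Sar1 (9.58), of ER exit, and Arf1 (8.57), of the Golgi, while Arf4 and Arl1 were not listed. The Ras and Ran families had 10 of 16 (62.5%), led by Ras85D (8.6) and Ras64B (7.82), while CG13375 and CG8500 were not listed. Median scores of the listed members were 5.63 for the Rab genes, 5.31 for the Arf and Sar genes and 4.74 for the Ras and Ran families. The DRE was present in 25% of Arf and Sar promoters and 18.8% of Ras and Ran promoters, beside 33.3% of Rab promoters. For genes that act on Rab proteins it was 29.2% of effector, 21.7% of GEF, 9.52% of GAP and 0% of prenylation and recycling promoters. Whether the Rab genes differed from these groups was not tested.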

How the data were processed

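Genomic binding of KDM5 was measured by TaDa in 4 samples of Dam:KDM5 and 4 of Dam alone. Per the study's methods, the authors aligned reads to dm6, ran damidseq_pipeline, averaged the replicates, called peaks with find_peaks (FDR 0.01, min_quant 0.9) and listed overlapping genes with peaks2genes. Their versions: not given in the sources used here, as is the log base. Each deposited score per peak and per gene is the authors' value relative to Dam alone, and the deposited FDR reached 0.00961 at most. All 4931 peaks began and ended at GATC sites of the reference, so coordinates are dm6, counted from 1.

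Of 5815 listed gene IDs, 5799 matched the Ensembl release 115 annotation by ID and 11 by symbol or synonym, while 5 did not match. Overlaps of 1 bp or more, distances, motifs and 31-base word uniqueness were computed with Python 3.11.15 and numpy 2.4.6 from that annotation and the RefSeq genome of the same build, and the code was tested on simulated intervals. The outermost TSS is the annotated start furthest upstream. All comparisons are counts and medians beside the same values for all genes, because the single averaged profile allows no test over samples. Named genes were all Rab members, from each other list the top 2 listed members by score plus the first 2 unlisted in alphabetical order, and genes that share a peak with a Rab gene or own the peak nearest to an unlisted one. Back-to-back partners were named after their values were seen. The members and lists were chosen with earlier results of these data known. In the lists Ric1, Hps1, Hps4, Tbc1, Tbc1d7, TBCK, Tbc1d13 and Mss4 did not match a symbol and were left out, and 1 further gene list is not reported here. Alternatives covered the definition of a bound gene, the peak threshold, the gene score, the TSS window and the motif.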

Additional observations from a re-analysis of the deposited data

How the results depend on the processing

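The count of bound Rab genes was 21 of 33 and ranged from 9 to 24 under other definitions of a bound gene. The highest, 24, used a window of 2 kb around a TSS. The lowest, 9 (20.1% of all genes), required a peak to cover an annotated TSS and was chosen after seeing the data. A count of 15 used the 2465 highest-scoring peaks, and an FDR under 0.001 gave 19, against 33.2% of all genes. Leaving out Rab genes within 100 bp of another Rab gene removed none, and leaving out the Rab9-like copies, also chosen after seeing the data, could not lower the count because none was listed. The count within 1 kb of a TSS, 22, was 17 within 500 bp (32% of all genes) and 24 within 2 kb (47.1%). The median score of 5.63 was 5.46 over the 10 genes with a peak that overlaps no other protein-coding gene. The DRE count of 11 was 17 with the core ATCGAT, which is a part of TATCGATA and so must match at least as often. No paired analysis was possible because the files analysed hold 1 averaged profile, and for the same reason no replicate could be left out. The files hold no read counts, so an unlisted Rab gene cannot be told apart from one bound below the peak threshold.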
